A study of Homo sapiens with 36 samples.

Results

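The data follow 45 genes of the ATF4 amino acid stress response in Jurkat cells, a human T-lymphoblast leukaemia line, over 3 consecutive days of culture. The genes were chosen by name, as rows of the count table whose Ensembl identifier belongs to a listed symbol. The list was made with earlier results of these data known. All 45 symbols matched 1 identifier each, out of 74628 identifiers in the table, and 44 passed the filter on low counts among 27553 genes tested. They comprise 8 regulators, 7 stress effectors, 10 enzymes of amino acid synthesis, 3 enzymes of mitochondrial one-carbon metabolism, 9 amino acid transporters and 8 genes of tRNA charging and export. The cells stably expressed dCas9-VP64, a nuclease-dead Cas9 fused to a transcriptional activator used for CRISPR activation (CRISPRa), and carried mCherry. They were transduced with lentivirus carrying either a guide aimed at RELA (sgRELA), the gene of the NF-kB subunit p65, or a control guide called non-targeting in the labels (sgControl). Puromycin selection lasted 3 days, and cells were harvested on day 5, 6 or 7 after transduction, so that both guides share the transduction, the selection and the activator. Each of the 6 groups held 3 biological replicates with 2 libraries each by RamDA-seq, a total-RNA method for very small inputs, giving 18 RNA samples and 36 libraries. The labels name 1 guide per target, do not say whether the line is a single clone, and no untransduced cells were analysed here. Harvest day is also culture day, so that time after transduction, time after selection and anything else that differed between the harvests cannot be told apart.

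ATF4 is a bZIP transcription factor whose messenger RNA is translated preferentially when the initiation factor eIF2 is phosphorylated. The kinases that phosphorylate eIF2 respond to uncharged tRNA, unfolded protein in the endoplasmic reticulum (ER), double-stranded RNA or haem shortage. ATF4 then binds composite C/EBP-ATF response elements and induces genes that import and make amino acids, supply one-carbon units, charge tRNAs and feed back on the pathway. In proliferating T cells and T-cell leukaemia the same genes also supply serine, asparagine, cystine and one-carbon units for growth.

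The element was looked for in the RefSeq promoter windows of build GRCh38.p14, which span 250 bases before to 50 bases from each transcription start, as TGATGNAA on either strand, the core commonly given for the element. Of the 45 genes, 37 had a window and 14 of these held the letters in at least 1 (37.8%), against 1217 of 27305 genes in the whole table (4.46%). Counted by window, the letters stood in 14 of 60 windows of the ATF4-response genes (23.3%) and in 1270 of 35116 of all genes (3.62%). GPT2, SLC7A11, SHMT2, PSPH, PYCR1, ALDH1L2, EIF4EBP1 and NUPR1 had no window. The 8 stretches that follow were picked after the values were seen: 6 are examples from the 11 genes with the letters that fell from day 5 to day 7 in both guides, at least 1 from each role group that holds such a gene, and the last 2 belong to genes that were not called in either guide. Each is read 5′ to 3′ on the gene's strand of the reference, with the matched letters in capitals.
ASNS, chr7:97872458-97872487, minus strand: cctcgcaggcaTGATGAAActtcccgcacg
CHAC1, chr15:40953251-40953280, plus strand: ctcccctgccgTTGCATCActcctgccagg
JDP2, chr14:75427995-75428024, plus strand: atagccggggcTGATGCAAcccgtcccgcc
SLC1A5, chr19:46784893-46784922, minus strand: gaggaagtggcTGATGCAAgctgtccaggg
SLC3A2, chr11:62881725-62881748, plus strand: tgcaggactccTTACATCAgctcc
AARS1, chr16:70289675-70289704, minus strand: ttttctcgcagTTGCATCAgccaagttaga
SLC1A4, chr2:64989381-64989410, plus strand: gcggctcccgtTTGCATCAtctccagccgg
SLC38A1, chr12:46266502-46266531, minus strand: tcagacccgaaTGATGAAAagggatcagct
The first matched base lay at -68 from the start in ASNS, -209 in CHAC1, -16 in JDP2, -97 in SLC1A5, 38 in SLC3A2, -187 in AARS1, -7 in SLC1A4 and -4 in SLC38A1. A match describes the reference sequence and is not evidence of binding in these cells.

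The libraries held 7586205 to 16124473 counts (median 12052035), and the 18 RNA samples, after the 2 libraries of each were added, 18769530 to 29503934. Levels are given as CPM, the gene's counts scaled by edgeR to 1000000 counts of the sample with TMM factors. CPM is not divided by gene length and is compared only within a gene. All 14 T-lymphoblast markers were detected. By contrast, myeloid, erythroid and epithelial markers stayed below 1 CPM on average, and of 3 fibroblast markers COL1A1 and PDGFRB passed 1 CPM while COL1A2 had no count. Of 5 B-cell markers 1 was detected, CD79A, with group means of 17.9 to 21.2 CPM in sgControl and 54.6 to 57.6 CPM in sgRELA. RELA lay between 20.2 and 39.3 CPM in the sgControl samples and between 119.8 and 318 CPM in the sgRELA samples. No RNA sample therefore went against its guide label. In sgRELA the RELA level was lower on each later day without overlap, with means of 294, 201 and 127 CPM on days 5, 6 and 7. The sgControl means were 33.3, 24.0 and 24.7 CPM. Library 1 of sgControl day 5 replicate 2 and library 1 of sgControl day 6 replicate 1 had the fewest detected genes (25398 and 26526). With the 2 libraries added, the sgControl day 6 samples had 31985 to 32750 detected genes, against a median of 31943.5 in all 18 RNA samples. Counts and calls that change without the 2 RNA samples that hold these libraries are given beside the results. The mitochondrial share of counts was highest on day 6 by its group medians (9.02% and 9.33%, against 7.46% to 7.70% on days 5 and 7), and its part in the results was not tested. Since RNA was taken from whole cultures, fewer cells with a transcript and less transcript per cell cannot be told apart.

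From day 5 to day 7 most of the ATF4-response genes fell, and they fell in both guides. In sgControl 31 of the 44 genes tested were lower on day 7 and 1 was higher, where 6.36% of all genes tested were lower and 6.65% higher at an adjusted p under 0.05 (edgeR quasi-likelihood test, Benjamini-Hochberg adjustment over all genes). In sgRELA 33 were lower and 1 was higher, against 6.06% and 6.35% of all genes. The median log2 fold change was -0.95 in sgControl and -1.15 in sgRELA, where the median of all genes was -0.01 in each. The same 30 genes were lower in both guides, which is 30 of the 31 in sgControl and 30 of the 33 in sgRELA, and the single gene higher in both was WARS1. Of all genes, 3.72% were lower and 4.39% higher in both. These comparisons share no sample between the guides. Leaving out any 1 RNA sample left 27 to 31 of the genes called in sgControl and 32 to 34 in sgRELA. Because the list was made with earlier results of these data known, the shares of all genes describe it and do not test it.

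**Figure D1:**
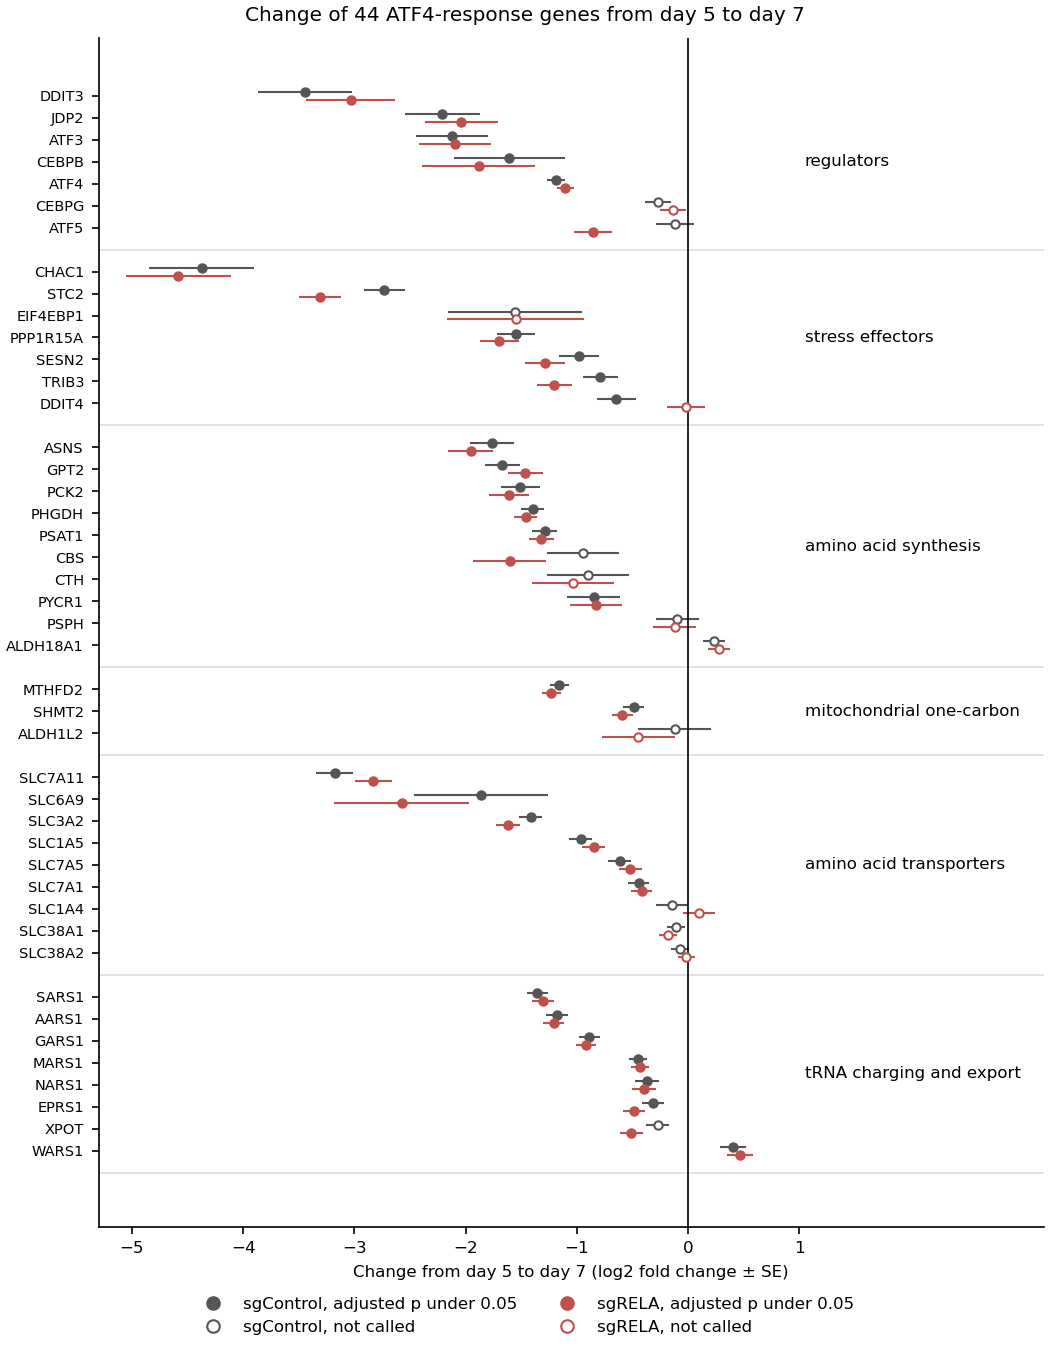
Log2 fold change from day 5 to day 7 with its standard error for the 44 ATF4-response genes tested (rows, grouped by role), in sgControl (grey) and sgRELA (red); filled points passed an adjusted p of 0.05. Nearly all points lie left of 0, with CHAC1, DDIT3, STC2 and SLC7A11 farthest left, and WARS1 alone is called to the right.

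The larger of the daily steps was the later one. Between day 5 and day 6, 4 genes rose and 12 fell in sgControl, against 3.29% and 5.58% of all genes, with a median log2 fold change of -0.22. In sgRELA 3 rose and 13 fell over that step, against 2.57% and 4.34% of all genes, with a median of -0.29. Between day 6 and day 7, 1 rose and 28 fell in sgControl, against 8.25% and 6.31% of all genes, with a median of -0.80. The corresponding numbers in sgRELA were 1 and 29, against 7.21% and 5.02% of all genes, with a median of -0.70. The medians of all genes over these steps were 0.04, 0.03, -0.07 and -0.06. On the first step 12 of the 44 genes were lower in both guides and 3 higher, against 2.99% and 1.31% of all genes. On the second step 26 were lower in both and 1 higher, against 2.95% and 5.78%. The fit was also made without the 2 RNA samples that hold the libraries with the fewest detected genes. Then sgControl had 13 genes called on the first step, 30 on the second and 32 from day 5 to day 7. For sgRELA these counts were 17, 30 and 35.

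ATF4 itself fell about 2-fold, and most of this fall came after day 6. Its gene lies on chromosome 22 (39519695 to 39522685, plus strand, GENCODE v29 on GRCh38). In sgControl its level was 301, 309.7 and 328 CPM on day 5, 275, 273 and 263 CPM on day 6 and 139, 136 and 138 CPM on day 7. The sgRELA samples gave 302, 291 and 294 CPM on day 5, 294, 273 and 272 CPM on day 6 and 134, 154 and 125 CPM on day 7. Every day 7 sample was below every day 5 and day 6 sample. Day 6 was also below day 5 without overlap in sgControl, and the 2 days overlapped in sgRELA. The fall from day 5 to day 7, with the standard error of the fit after each log2 fold change here and throughout, was 2.28-fold in sgControl (log2 fold change -1.19 ± 0.08, adjusted p = 8.5e-12) and 2.15-fold in sgRELA (log2 fold change -1.10 ± 0.08, adjusted p = 3.5e-11). The earlier step did not pass the test in either guide (adjusted p = 0.097 and 0.69). ATF4 also varied least between replicates of all 44 genes, with a median SD of 0.05 on the log2 scale.

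By their fitted values DDIT3, ATF3, JDP2 and CEBPB, factors that act with ATF4, fell further than ATF4 from day 5 to day 7. Differences between genes were not tested. DDIT3 encodes CHOP, a C/EBP-family factor that joins the response under lasting stress, and lies on chromosome 12 (57516588 to 57521737, minus strand). DDIT3 measured 7.02, 5.62 and 7.86 CPM on day 5, 11.1, 12.02 and 12.3 CPM on day 6 and 0.373, 0.214 and 1.26 CPM on day 7 in sgControl, and 11.6, 8.88 and 10.5 CPM on day 5, 9.56, 11.01 and 10.3 CPM on day 6 and 0.867, 0.772 and 2.14 CPM on day 7 in sgRELA. On day 7 it was near the lower end of detection, with 5 counts in the lowest sample, whereas every sample of days 5 and 6 had at least 123. The change from day 6 to day 7 was -4.23 ± 0.43 on the log2 scale in sgControl (adjusted p = 1.1e-08) and -3.03 ± 0.40 in sgRELA (adjusted p = 1.4e-06). Exons of DDIT3 share 27.2% of their bases with exons of MARS1 on the opposite strand, and the strand setting of the counting is not given in the sources used here. MARS1 was at 274, 277 and 302 CPM in the same sgControl samples of day 7.

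ATF3, a stress-induced bZIP factor, and JDP2, a bZIP repressor that pairs with Jun and ATF proteins, both ended low but took different routes. ATF3 in sgControl was at 21.2, 16.2 and 14.8 CPM on day 5, 6.72, 11.6 and 12.1 CPM on day 6 and 2.94, 4.96 and 4.11 CPM on day 7. In sgRELA it was at 15.9, 17.96 and 15.1 CPM on day 5, 5.57, 7.52 and 5.91 CPM on day 6 and 6.23, 1.87 and 3.31 CPM on day 7. It was lower on each later day by its mean in both guides. The call fell on the second step in sgControl (log2 fold change -1.34 ± 0.32, adjusted p = 0.0031) and on the first in sgRELA (log2 fold change -1.36 ± 0.31, adjusted p = 0.0051), and the difference between the guides was not called for either step. JDP2 was not called between day 5 and day 6, with 10.4, 7.82 and 8.93 CPM on day 5, 13.4, 15.1 and 11.4 CPM on day 6 and 1.49, 3.17 and 1.22 CPM on day 7 in sgControl. The sgRELA values were 14.9, 9.36 and 7.84 CPM on day 5, 15.5, 13.1 and 9.83 CPM on day 6 and 3.43, 2.68 and 1.68 CPM on day 7. All day 7 samples of JDP2 lay below all earlier ones, with a change from day 6 of -2.76 ± 0.34 on the log2 scale in sgControl and -2.30 ± 0.33 in sgRELA.

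ATF5, a bZIP factor related to ATF4 and linked to the mitochondrial stress response, rose and fell again. It was at 20.96, 14.6 and 12.5 CPM on day 5, 96.1, 94.5 and 70.7 CPM on day 6 and 13.3, 13.4 and 17.8 CPM on day 7 in sgControl. It was at 23.6, 28.1 and 21.97 CPM on day 5, 98.8, 97.1 and 98.4 CPM on day 6 and 13.05, 12.2 and 15.4 CPM on day 7 in sgRELA. The day 6 samples stood above all samples of days 5 and 7, by 5.43-fold over day 5 in sgControl and by 3.995-fold in sgRELA. The fall to day 7 was 5.87-fold and 7.24-fold (adjusted p = 3.5e-12 and 5.5e-13). Day 7 was below day 5 in sgRELA (log2 fold change -0.86 ± 0.17, adjusted p = 0.00067) but not called in sgControl (log2 fold change -0.11 ± 0.17, adjusted p = 0.76). Of the remaining regulators, CEBPB, a C/EBP factor that pairs with ATF4, fell between day 6 and day 7 in both guides from a low level, and CEBPG, another dimer partner, was called on 1 step in 1 guide, between day 6 and day 7 in sgRELA (log2 fold change -0.36 ± 0.12, adjusted p = 0.042). NUPR1, a small stress-response protein of chromatin, did not pass the count filter and reached at most 0.57 CPM.

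**Figure D2:**
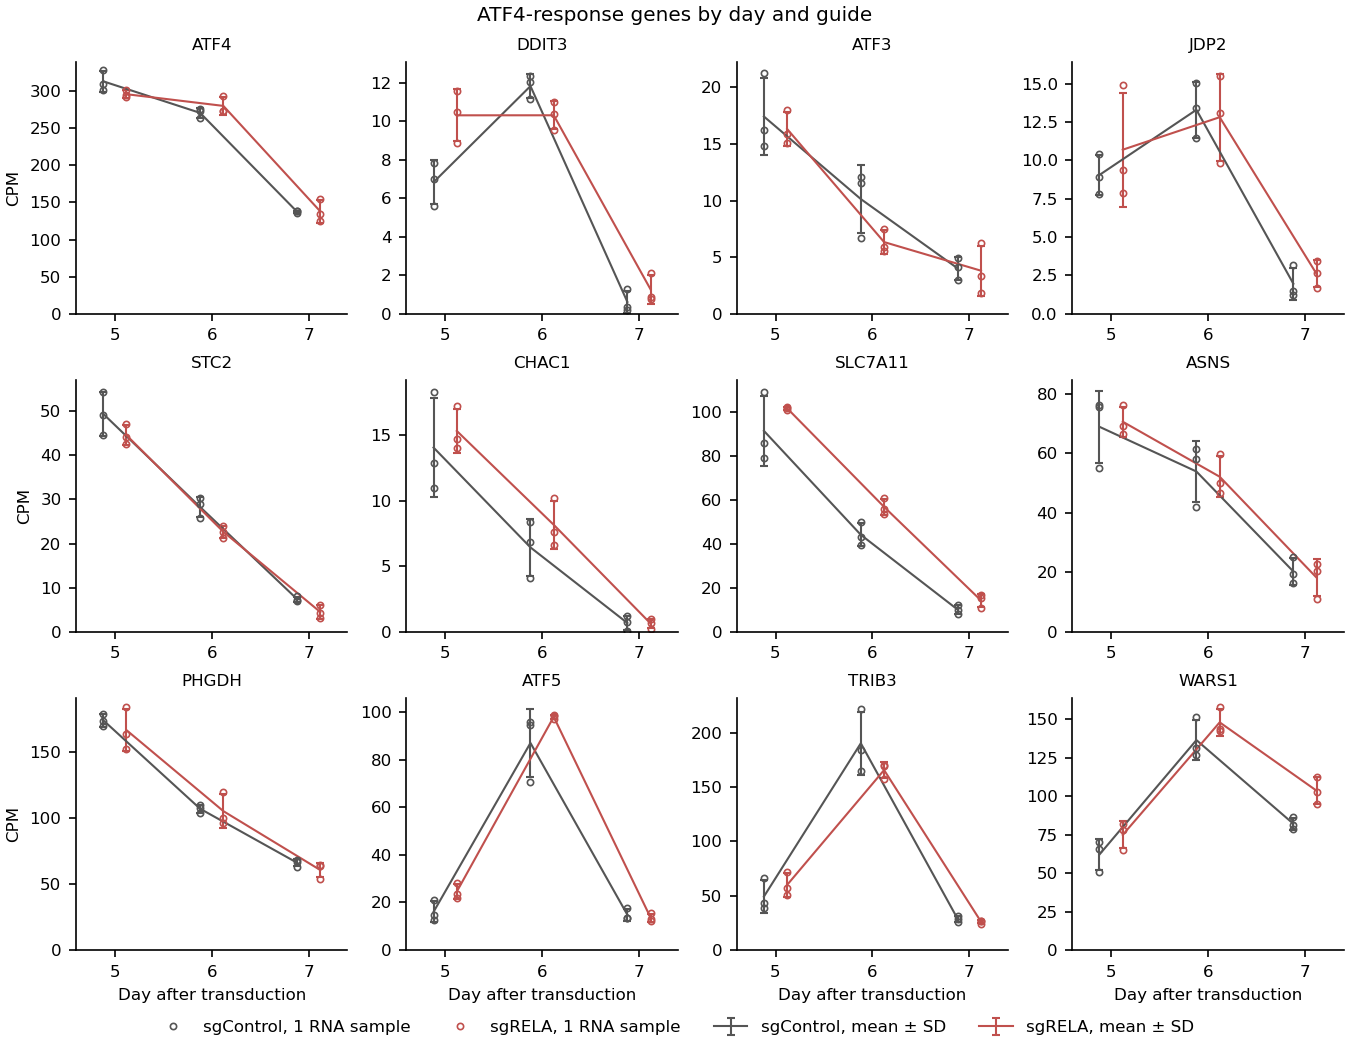
Level in CPM (vertical axis, from 0) of 12 ATF4-response genes on days 5, 6 and 7 after transduction, for sgControl (grey) and sgRELA (red); open circles are single RNA samples, lines join group means and bars are the SD of 3 replicates. ATF5, TRIB3 and WARS1 peak on day 6, DDIT3 and JDP2 are lowest on day 7, and STC2, CHAC1, SLC7A11 and PHGDH have a lower mean on each later day.

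Among the stress effectors, 5 of 7 genes tested fell from day 5 to day 7 in both guides. STC2, a secreted glycoprotein induced by ER stress, fell on both steps. Its sgControl levels were 44.6, 54.4 and 49.2 CPM on day 5, 25.7, 28.9 and 30.3 CPM on day 6 and 8.07, 7.19 and 7.03 CPM on day 7. Those of sgRELA were 44.1, 42.5 and 47.1 CPM on day 5, 21.2, 24.1 and 22.7 CPM on day 6 and 3.11, 4.30 and 6.08 CPM on day 7. No sample of one day overlapped with another day, and the change from day 5 to day 7 was -2.73 ± 0.18 on the log2 scale in sgControl (adjusted p = 8.5e-12) and -3.31 ± 0.19 in sgRELA (adjusted p = 4.1e-13).

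CHAC1, an enzyme that degrades glutathione and a target of ATF4 and CHOP, fell to 1.20 CPM or less in every day 7 sample. In sgControl it measured 18.3, 11.02 and 12.9 CPM on day 5, 8.38, 6.88 and 4.08 CPM on day 6 and 0.0828, 1.20 and 0.750 CPM on day 7. In sgRELA it measured 17.2, 14.8 and 14.03 CPM on day 5, 10.2, 6.67 and 7.63 CPM on day 6 and 0.946, 0.244 and 0.713 CPM on day 7. The fall from day 5 to day 7 was the steepest of the 44 genes in each guide by its fitted value, -4.37 ± 0.47 on the log2 scale in sgControl (adjusted p = 8e-08) and -4.58 ± 0.48 in sgRELA (adjusted p = 4.3e-08). The day 7 levels rest on as few as 2 counts in a sample, so that the size of this fall is less certain than its direction.

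PPP1R15A encodes GADD34, which brings a phosphatase to eIF2 and so closes the feedback loop of the pathway. It was at 48.5, 47.8 and 43.1 CPM on day 5, 33.3, 37.5 and 31.2 CPM on day 6 and 13.5, 15.3 and 18.9 CPM on day 7 in sgControl. The levels in sgRELA were 45.6, 61.1 and 55.9 CPM on day 5, 43.96, 36.96 and 42.3 CPM on day 6 and 17.7, 20.7 and 11.8 CPM on day 7. Each day 7 sample lay below every earlier sample. Day 7 was 2.92-fold lower than day 5 in sgControl and 3.24-fold lower in sgRELA (adjusted p = 1.4e-07 and 2.8e-08).

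TRIB3, a pseudokinase that is induced by ATF4 and CHOP and restrains both, moved like ATF5. Its levels were 66.2, 38.6 and 42.9 CPM on day 5, 222, 165 and 185 CPM on day 6 and 31.5, 25.6 and 28.4 CPM on day 7 in sgControl. They were 72.2, 57.1 and 50.8 CPM on day 5, 170.4, 169 and 158 CPM on day 6 and 24.2, 26.96 and 27.1 CPM on day 7 in sgRELA. Day 6 was 3.87-fold above day 5 in sgControl and 2.76-fold above it in sgRELA. Day 7 fell below day 5 (log2 fold change -0.79 ± 0.15, adjusted p = 0.00054 in sgControl, log2 fold change -1.20 ± 0.15, adjusted p = 1.6e-06 in sgRELA). SESN2, which senses leucine and holds back mTORC1, fell after day 6 in both guides. DDIT4, another brake on mTORC1, was lower on day 7 than on day 5 in sgControl alone (log2 fold change -0.64 ± 0.17, adjusted p = 0.011; log2 fold change -0.02 ± 0.17, adjusted p = 0.97 in sgRELA), and the difference between the guides was not called. Of the exonic bases of DDIT4, 41.2% are shared with the antisense gene DDIT4-AS1. EIF4EBP1, a repressor of cap-dependent translation, was not called in any comparison, at group means of 0.60 to 2.79 CPM.

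Of the 10 enzymes of amino acid synthesis, 6 fell from day 5 to day 7 in both guides. ASNS makes asparagine and is the standard reporter gene of amino acid limitation. It lies on chromosome 7 (97852118 to 97872542, minus strand). Its levels in sgControl were 75.4, 54.9 and 76.3 CPM on day 5, 42.1, 61.3 and 58.2 CPM on day 6 and 19.4, 16.4 and 25.03 CPM on day 7. The sgRELA samples gave 76.2, 66.3 and 69.2 CPM on day 5, 59.8, 46.5 and 49.96 CPM on day 6 and 22.9, 20.5 and 11.1 CPM on day 7. Day 7 was below both earlier days without overlap, and the fall from day 6 was 2.65-fold in sgControl and 2.86-fold in sgRELA (adjusted p = 3.2e-06 and 1.3e-06). Exons of a same-strand transcript overlap 44.6% of the ASNS exonic bases in GENCODE v29, and ASNS, PSAT1 and MTHFD2 also have named pseudogenes, so that reads could be split between them. The same holds for ATF4, which has 4 named pseudogenes, and for PSPH, EIF4EBP1, SLC7A5, AARS1, GARS1, WARS1, NARS1 and XPOT. Exons of other genes on either strand also cover 29.7% of the exonic bases of PYCR1, 23.8% in SLC1A5 and 23.7% in ATF5, and smaller shares in further genes.

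PHGDH and PSAT1 catalyse the first and second steps of serine synthesis. PHGDH fell on each day, from 174, 179 and 169.8 CPM on day 5, 109.7, 104 and 108 CPM on day 6 and 66.8, 63.3 and 68.6 CPM on day 7 in sgControl. In sgRELA the levels were 184, 153 and 164 CPM on day 5, 120.1, 96.03 and 99.9 CPM on day 6 and 64.3, 54.2 and 63.5 CPM on day 7. The 3 days did not overlap in either guide. Day 7 was 2.63-fold below day 5 in sgControl and 2.75-fold below it in sgRELA (adjusted p = 4e-11 and 1.7e-11). PSAT1 in sgControl was at 293, 269.8 and 288 CPM on day 5, 163, 260.2 and 226 CPM on day 6 and 118, 127 and 104 CPM on day 7. The corresponding sgRELA values were 317, 320.2 and 289 CPM on day 5, 243, 235 and 246 CPM on day 6 and 123, 119.9 and 128 CPM on day 7. Its change from day 5 to day 7 was -1.29 ± 0.11 on the log2 scale in sgControl (adjusted p = 9.5e-10) and -1.32 ± 0.11 in sgRELA (adjusted p = 5.5e-10). PSPH, which carries out the last step of the same route, was not called in any comparison, with group means between 13.1 and 16.5 CPM.

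GPT2, the mitochondrial enzyme that makes alanine from pyruvate, fell after day 6. It was at 36.6, 32.4 and 37.4 CPM on day 5, 37.5, 32.5 and 28.2 CPM on day 6 and 10.1, 11.8 and 11.5 CPM on day 7 in sgControl. It was at 31.6, 35.4 and 32.4 CPM on day 5, 30.5, 27.1 and 29.2 CPM on day 6 and 12.2, 11.5 and 12.3 CPM on day 7 in sgRELA. All day 7 samples lay below 13 CPM and all earlier ones above 27 CPM, a fall from day 6 of 2.93-fold in sgControl and 2.40-fold in sgRELA (adjusted p = 7.2e-09 and 3.5e-07). PCK2, the mitochondrial phosphoenolpyruvate carboxykinase, fell from group means of 46.9 CPM on day 6 to 14.3 CPM on day 7 in sgControl and from 38.9 to 14.7 CPM in sgRELA. The proline route split: PYCR1, its last enzyme, was lower on day 7 than on day 5 in both guides, whereas ALDH18A1, its first, was the single gene to rise between day 6 and day 7 (log2 fold change 0.51 ± 0.10, adjusted p = 0.00043 in sgControl, log2 fold change 0.53 ± 0.10, adjusted p = 0.00032 in sgRELA). CBS, which opens the transsulfuration route from homocysteine to cysteine, was at 5.04, 7.68 and 8.24 CPM on day 5, 5.88, 6.52 and 7.58 CPM on day 6 and 2.69, 5.52 and 2.68 CPM on day 7 in sgControl. The sgRELA values were 7.86, 10.7 and 9.56 CPM on day 5, 3.86, 5.86 and 6.53 CPM on day 6 and 2.995, 3.74 and 2.52 CPM on day 7. Day 7 was lower than day 5 in sgRELA (log2 fold change -1.60 ± 0.33, adjusted p = 0.001) and missed the threshold in sgControl (log2 fold change -0.94 ± 0.33, adjusted p = 0.053), with no call on the difference between the guides. CTH, the next enzyme of that route, was not called in either guide (log2 fold change -0.90 ± 0.37 in sgControl and -1.04 ± 0.37 in sgRELA).

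MTHFD2 and SHMT2 make one-carbon units from serine in mitochondria, and both fell. MTHFD2 lost about the same share on each step, with 358, 280.4 and 316 CPM on day 5, 212, 233 and 223 CPM on day 6 and 141, 135 and 152 CPM on day 7 in sgControl. In sgRELA it was at 337, 302 and 309 CPM on day 5, 216, 215 and 212 CPM on day 6 and 143, 133 and 129 CPM on day 7. No day overlapped with another. Day 7 was 2.23-fold below day 5 in sgControl and 2.34-fold in sgRELA (adjusted p = 6.8e-11 and 2.1e-11). SHMT2 kept its level to day 6, at 138, 150.1 and 173 CPM on day 5, 176, 150.4 and 169 CPM on day 6 and 114, 106 and 108 CPM on day 7 in sgControl. The sgRELA levels were 176, 155 and 157 CPM on day 5, 155, 145 and 139.6 CPM on day 6 and 102, 112 and 110.0 CPM on day 7. Its fall from day 6 to day 7 was smaller, 1.51-fold in sgControl and 1.35-fold in sgRELA (adjusted p = 2.2e-05 and 0.0014), but the day 7 samples again lay below all others. The third enzyme of the list, ALDH1L2, which oxidises formyl folate, was not called at 3.96 to 6.12 CPM. For MTHFD2, 27.2% of exonic bases are shared with SLC4A5 on the opposite strand.

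Of the 9 transporters, 6 fell from day 5 to day 7 in both guides. SLC7A11 exchanges glutamate for cystine and feeds glutathione synthesis. It lies on chromosome 4 (138164097 to 138242349, minus strand). Its levels in sgControl were 109, 79.1 and 85.97 CPM on day 5, 49.9, 43.2 and 39.4 CPM on day 6 and 10.1, 7.96 and 12.2 CPM on day 7. Those in sgRELA were 102, 102 and 101 CPM on day 5, 60.9, 53.6 and 56.1 CPM on day 6 and 15.5, 16.6 and 10.8 CPM on day 7. The days separated fully, and SLC7A11 was 9.04-fold lower on day 7 than on day 5 in sgControl and 7.10-fold lower in sgRELA (adjusted p = 7e-14 and 4.1e-13).

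SLC3A2 is the heavy chain that carries SLC7A11 and SLC7A5 to the membrane, and it fell on both steps as well. In sgControl it was at 161, 156 and 158 CPM on day 5, 109, 111 and 118 CPM on day 6 and 54.9, 56.3 and 67.6 CPM on day 7. In sgRELA it was at 171, 143 and 158 CPM on day 5, 113, 114 and 94.2 CPM on day 6 and 54.6, 49.01 and 50.1 CPM on day 7. The change from day 5 to day 7, -1.41 ± 0.10 in sgControl and -1.62 ± 0.10 in sgRELA on the log2 scale, was smaller than that of SLC7A11 by its fitted value. SLC7A5, the partner that brings in leucine and other large neutral amino acids, changed less, with 177, 197 and 184 CPM on day 5, 212, 161 and 168 CPM on day 6 and 120.0, 124 and 121 CPM on day 7 in sgControl. The values in sgRELA were 200.2, 174 and 178 CPM on day 5, 189.8, 159 and 152 CPM on day 6 and 128, 136 and 122 CPM on day 7. Its fall from day 5 to day 7 was 1.53-fold in sgControl (adjusted p = 6.2e-05) and 1.43-fold in sgRELA (adjusted p = 0.00055).

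SLC1A5, the glutamine and neutral amino acid exchanger, was at 122, 119 and 111 CPM on day 5, 88.8, 93.98 and 91.9 CPM on day 6 and 62.8, 58.3 and 59.4 CPM on day 7 in sgControl. It was at 123, 125 and 98.03 CPM on day 5, 84.4, 90.6 and 95.9 CPM on day 6 and 66.6, 66.8 and 58.9 CPM on day 7 in sgRELA. The 3 days were apart in both guides. The change from day 5 to day 7 was -0.96 ± 0.10 on the log2 scale in sgControl (adjusted p = 7.9e-08) and -0.85 ± 0.10 in sgRELA (adjusted p = 6.7e-07). SLC7A1, a carrier of arginine and lysine, fell by day 6 and held, and SLC6A9, a glycine carrier at 4.09 CPM or less, fell after day 6. No call was made for the other three: SLC1A4, SLC38A1 and SLC38A2, carriers of small neutral amino acids, showed fitted changes from day 5 to day 7 between -0.18 and 0.10 on the log2 scale. SLC1A4 and SLC38A1 are the 2 genes with a promoter stretch shown and no call.

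Of the 8 tRNA genes, 6 fell from day 5 to day 7 in both guides and 1 rose, with median log2 fold changes of -0.41 in sgControl and -0.50 in sgRELA over the 8. SARS1, seryl-tRNA synthetase, was at 191, 157 and 169.8 CPM on day 5, 126, 141 and 141 CPM on day 6 and 68.8, 64.2 and 69.4 CPM on day 7 in sgControl. In sgRELA it was at 179.5, 168 and 180.1 CPM on day 5, 123, 122 and 135 CPM on day 6 and 75.9, 73.7 and 64.3 CPM on day 7. It was lower on each day without overlap, and 2.56-fold lower on day 7 than on day 5 in sgControl and 2.47-fold lower in sgRELA (adjusted p = 2.6e-11 and 4.6e-11). AARS1, alanyl-tRNA synthetase, was high until day 6 and then fell, with 311, 237 and 246 CPM on day 5, 299, 348 and 359 CPM on day 6 and 119, 114 and 119 CPM on day 7 in sgControl. The sgRELA levels were 278, 274 and 251 CPM on day 5, 299, 338 and 297 CPM on day 6 and 111, 118 and 119 CPM on day 7. From day 6 to day 7 AARS1 fell 2.87-fold in sgControl and 2.68-fold in sgRELA (adjusted p = 9.1e-13 and 3.4e-12).

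GARS1, glycyl-tRNA synthetase, fell mostly by day 6, with 272, 228 and 271 CPM on day 5, 148, 178 and 171 CPM on day 6 and 140.0, 149 and 129 CPM on day 7 in sgControl. Its sgRELA samples gave 281, 276 and 272 CPM on day 5, 199, 181 and 194 CPM on day 6 and 158, 133 and 149 CPM on day 7. Day 6 was below day 5 without overlap in both guides (log2 fold change -0.63 ± 0.09, adjusted p = 2.1e-05 in sgControl, log2 fold change -0.53 ± 0.09, adjusted p = 0.00025 in sgRELA). MARS1, methionyl-tRNA synthetase, changed least of the 4, at 375, 413 and 376 CPM on day 5, 357, 297 and 344 CPM on day 6 and 274, 277 and 302 CPM on day 7 in sgControl. It measured 366, 383 and 407 CPM on day 5, 391, 370.0 and 332 CPM on day 6 and 288, 275 and 297 CPM on day 7 in sgRELA. Day 7 was 1.36-fold below day 5 in sgControl and 1.35-fold in sgRELA (adjusted p = 0.00022 and 0.00037).

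WARS1, tryptophanyl-tRNA synthetase, which is also induced by interferon, went the other way. Its sgControl levels were 70.2, 65.4 and 50.8 CPM on day 5, 131, 152 and 127 CPM on day 6 and 86.5, 78.7 and 81.04 CPM on day 7. In sgRELA they were 81.7, 64.9 and 77.99 CPM on day 5, 142, 144 and 158 CPM on day 6 and 103, 113 and 95.2 CPM on day 7. Every day 6 sample was above every other sample, day 6 was 2.20-fold above day 5 in sgControl and 1.98-fold in sgRELA. Day 7 remained above day 5 (log2 fold change 0.40 ± 0.12, adjusted p = 0.018 in sgControl, log2 fold change 0.47 ± 0.12, adjusted p = 0.0056 in sgRELA). That last call ended without sgControl day 5 replicate 3 (adjusted p = 0.163) or sgControl day 7 replicate 1 (adjusted p = 0.0793), and in sgRELA without day 5 replicate 2 (adjusted p = 0.0603). NARS1 and EPRS1, the asparaginyl- and glutamyl-prolyl-tRNA synthetases, fell by day 6 in both guides and were not called after it. XPOT, which exports tRNA from the nucleus, was at 332, 265 and 341 CPM on day 5, 283, 391 and 408 CPM on day 6 and 264, 258 and 255 CPM on day 7 in sgControl. The sgRELA samples were at 317, 361 and 354 CPM on day 5, 356, 337 and 381 CPM on day 6 and 252, 241 and 233 CPM on day 7. The 3 replicates of sgControl day 6 spread from 283 to 408 CPM. XPOT fell between day 6 and day 7 in both guides (log2 fold change -0.48 ± 0.10, adjusted p = 0.0011 in sgControl, log2 fold change -0.56 ± 0.10, adjusted p = 0.00019 in sgRELA). Day 7 was lower than day 5 in sgRELA (adjusted p = 0.00084) but not called in sgControl (adjusted p = 0.082).

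Taking both steps together, the calls on the 2 steps matched between the guides for 38 of the 44 genes, 9 of them by no call on either step. Matching calls do not show equal time courses. ATF5, CBS, DDIT4 and XPOT are among the 38 and were called from day 5 to day 7 in 1 guide alone. The share of all genes with matching calls is not given here. On the single steps, 2.99% and 2.95% of all genes were lower in both guides. Both steps use the same day 6 samples, so that a high or low day 6 sample enters each of them, and they are not independent. ATF5, TRIB3 and WARS1 rose to day 6 and then fell. MTHFD2, PHGDH, PSAT1, SARS1, SLC1A5, SLC3A2, SLC7A11 and STC2 fell on both steps, 8 genes in all. EPRS1, NARS1 and SLC7A1 fell on the first step alone. The largest class, 14 genes, was called lower on the second step alone: ASNS, ATF4, CEBPB, CHAC1, DDIT3, GPT2, JDP2, PCK2, PPP1R15A, SESN2, SHMT2, SLC6A9, SLC7A5 and XPOT. ALDH18A1 rose on the second step, and 9 genes were called on neither. In the 6 remaining genes the guides differed in which step was called, AARS1, ATF3, CEBPG, GARS1, MARS1 and PYCR1, and none of these differences between guides passed the test itself.

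**Figure D3:**
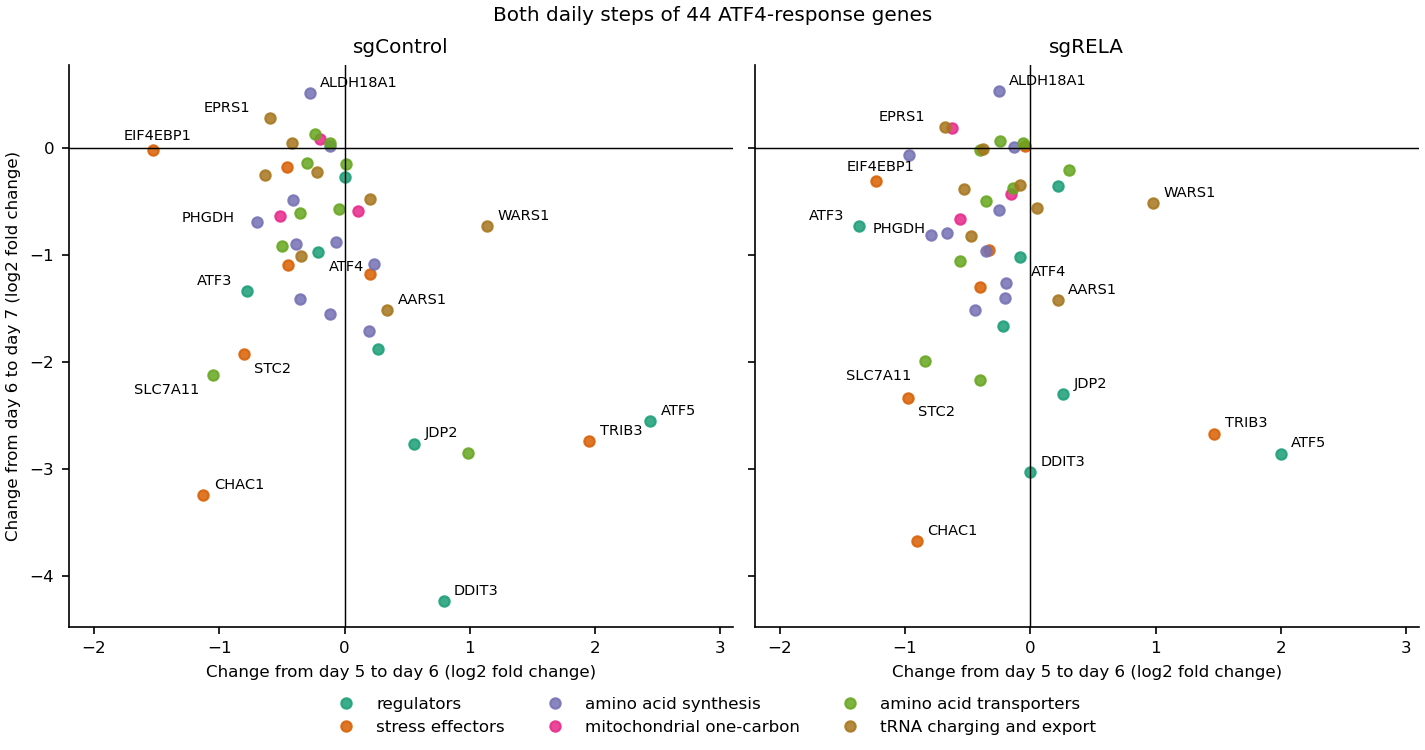
Log2 fold change from day 5 to day 6 (horizontal) against that from day 6 to day 7 (vertical) for the 44 ATF4-response genes tested, coloured by role, in sgControl (left) and sgRELA (right). Most points lie below the horizontal line at 0, ATF5, TRIB3 and WARS1 lie at the lower right, and SLC7A11, STC2 and CHAC1 at the lower left; both axes use the day 6 samples.

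Several calls on the first step were lost when 1 RNA sample was left out. The call of PSAT1 between day 5 and day 6 ended in sgControl without day 6 replicate 1 (adjusted p = 0.134), day 5 replicate 1 (0.0658) or day 5 replicate 3 (0.0605). In sgRELA it ended whichever of the 6 samples was left out (0.055 to 0.14). That of SLC1A5 ended in sgControl without day 5 replicate 1 (adjusted p = 0.083), day 5 replicate 2 (0.0618), day 6 replicate 1 (0.0576) or day 6 replicate 3 (0.0549), and in sgRELA without day 5 replicate 1 (0.134), day 5 replicate 2 (0.161), day 6 replicate 1 (0.146) or day 6 replicate 2 (0.0955). SARS1 lost its sgControl call without day 5 replicate 1 (adjusted p = 0.118) or day 6 replicate 1 (0.0622), and the rise of AARS1 in sgControl (log2 fold change 0.34 ± 0.09, adjusted p = 0.017) was lost without day 5 replicate 2 (0.13), day 5 replicate 3 (0.107), day 6 replicate 2 (0.0642) or day 6 replicate 3 (0.0972). On the second step, SLC7A5 in sgRELA lost its call without day 6 replicate 1 (adjusted p = 0.127) or day 7 replicate 3 (0.0618). Among the ATF4-response genes whose samples are given here, the only other calls between days that were lost when 1 RNA sample was left out were those of WARS1 given with its levels, and none changed direction. The fit was repeated without the 2 RNA samples that hold the libraries with the fewest detected genes. STC2 (adjusted p = 0.0504), PSAT1 (0.107) and SLC1A5 (0.109) were then no longer called on the first step in sgControl. Library 1 of sgControl day 6 replicate 1 also lay outside the other libraries of its group for ASNS, TRIB3, GPT2, SLC7A5, GARS1 and XPOT. Their sgControl calls all stayed without the 2 samples. From day 6 to day 7 the log2 fold change was then -1.53 for ASNS (-1.41 with them), -2.58 for TRIB3 (-2.74), -1.41 for GPT2 (-1.55), -0.41 for SLC7A5 (-0.57) and -0.60 for XPOT (-0.48). Calls were gained in sgControl for XPOT from day 5 to day 7 (-0.36, adjusted p = 0.00111) and for GARS1 from day 6 to day 7 (-0.30, adjusted p = 0.0165).

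RELA activation was the study's intervention, and the question here is whether it moved the ATF4-response genes. RELA itself was lower on each later day in sgRELA, so that the days do not stand for an equal level of RELA. With the filter on low counts and all RNA samples, edgeR called none of the 44 genes between sgRELA and sgControl on any day, where 0.138% of all genes were called on day 5, 0.214% on day 6 and 0.0907% on day 7. The fitted differences ran from -0.66 to 0.73 on the log2 scale on day 5, from -0.68 to 0.37 on day 6 and from -0.73 to 1.00 on day 7, with medians of 0.03, -0.05 and 0.01. At an unadjusted p under 0.05, 2 of the 44 genes passed on day 5, 4 on day 6 and 6 on day 7. Of all 27553 genes tested, 1641 passed on day 5, 1672 on day 6 and 1290 on day 7. A p above the threshold does not show that the guides were alike. The gene nearest a call on day 5 was ATF5, at 20.96, 14.6 and 12.5 CPM in sgControl and 23.6, 28.1 and 21.97 CPM in sgRELA (log2 fold change 0.61 ± 0.17, adjusted p = 0.36), whose groups did not overlap. On day 7 it was STC2, at 8.07, 7.19 and 7.03 CPM in sgControl and 3.11, 4.30 and 6.08 CPM in sgRELA (log2 fold change -0.73 ± 0.19, adjusted p = 0.3), again without overlap. These 2 genes are named for this comparison after their values were seen. ATF5 was called on day 5 with no filter on low counts (log2 fold change 0.61, adjusted p = 0.0172) and without sgControl replicate 1 (0.86, adjusted p = 0.03), and STC2 on day 7 without sgRELA replicate 3 (log2 fold change -1.003, adjusted p = 0.0208) and with DESeq2 (-0.73, adjusted p = 0.0345).

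The day-to-day changes themselves were also compared between the guides. None of the 44 genes was called for the change from day 5 to day 6, from day 6 to day 7 or from day 5 to day 7 by edgeR, where 0%, 0.00363% and 0% of all genes were. The unadjusted p was under 0.05 for 2, 1 and 3 of the 44 genes, and for 1331, 1343 and 1307 of all 27553 genes tested. With DESeq2, and with each RNA sample left out in turn, the count was also 0 for each of these 3 changes. The fitted differences between guides in the change from day 5 to day 7 lay between -0.74 and 0.62 on the log2 scale.

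Genes around the pathway, from lists that hold none of the 45, did not share one direction. The counts of these lists from day 5 to day 7 stand against 3.72% of all genes lower and 4.39% higher in both guides. Of 12 further genes known to be induced by ATF4 or CHOP and tested, 4 fell from day 5 to day 7 in both guides and 0 rose in both. VEGFA, the vascular growth factor, fell from 66.2, 63.3 and 60.2 CPM on day 5 to 14.7, 13.01 and 10.7 CPM on day 7 in sgControl (log2 fold change -2.31 ± 0.18, adjusted p = 9.4e-11; log2 fold change -2.70 ± 0.18, adjusted p = 5.1e-12 in sgRELA). VLDLR, a lipoprotein receptor, fell from 81.4, 89.5 and 93.8 to 32.8, 27.99 and 30.3 CPM in sgControl (log2 fold change -1.54 ± 0.13, adjusted p = 1.5e-09; log2 fold change -2.09 ± 0.14, adjusted p = 4.9e-12 in sgRELA). KLHL24, an adaptor of ubiquitin ligases, fell from means of 141 to 80.9 CPM in sgControl and from 149 to 76.7 CPM in sgRELA.

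Upstream of ATF4, 16 genes for eIF2 kinases, eIF2, its exchange factor eIF2B and their regulators were tested, and 2 fell and 2 rose from day 5 to day 7 in both guides. EIF2AK2 encodes PKR, the eIF2 kinase that senses double-stranded RNA. It rose from 79.3, 86.2 and 90.03 CPM on day 5 to 148, 192 and 162 CPM on day 7 in sgControl (log2 fold change 0.97 ± 0.11, adjusted p = 8.8e-08; log2 fold change 0.89 ± 0.11, adjusted p = 3.8e-07 in sgRELA). EIF2S1, the eIF2 subunit that is phosphorylated, rose from means of 84.97 to 137 CPM in sgControl and from 88.95 to 134 CPM in sgRELA. EIF2S2, another subunit, and PPP1R15B, the constitutive partner of the eIF2 phosphatase, fell. Messenger levels of these genes do not report the phosphorylation of eIF2.

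Of 20 one-carbon enzymes outside the list and tested, 9 rose and 1 fell from day 5 to day 7 in both guides, and 10 were not called in both. Among the 9, MAT2A, which makes S-adenosylmethionine from methionine, had the smallest p in sgControl. In sgControl its levels were 353, 333 and 359 CPM on day 5, 345, 419.5 and 395 CPM on day 6 and 737, 677 and 711 CPM on day 7 (log2 fold change 1.02 ± 0.07, adjusted p = 3.2e-11 from day 5 to day 7; log2 fold change 0.91 ± 0.07, adjusted p = 3.3e-10 in sgRELA). MTHFD1, the cytosolic counterpart of the mitochondrial pathway, was at 128, 129.6 and 163 CPM on day 5, 80.1, 104 and 101 CPM on day 6 and 257, 256 and 233 CPM on day 7 in sgControl, below day 5 on day 6 and above it on day 7 (log2 fold change 0.83 ± 0.10, adjusted p = 7.3e-07; log2 fold change 0.66 ± 0.10, adjusted p = 2.1e-05 in sgRELA). PFAS, an enzyme of purine synthesis, took the same course, with 105, 142 and 122 CPM on day 5, 91.6, 66.6 and 75.3 CPM on day 6 and 195, 224 and 228 CPM on day 7 in sgControl (log2 fold change 0.81 ± 0.11, adjusted p = 3.8e-06; log2 fold change 0.90 ± 0.11, adjusted p = 6.5e-07 in sgRELA). The 1 that fell was MTHFD1L. It was at 72.3, 65.8 and 69.4 CPM on day 5, 51.4, 43.2 and 39.8 CPM on day 6 and 41.7, 40.8 and 39.04 CPM on day 7 in sgControl. Its change from day 5 to day 7 was -0.77 ± 0.12 on the log2 scale in sgControl (adjusted p = 2.5e-05) and -0.55 ± 0.12 in sgRELA (adjusted p = 0.0017).

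Other cytosolic tRNA synthetases and their scaffold proteins also went in both directions. Of 16 tested, 5 fell and 3 rose from day 5 to day 7 in both guides. YARS1, tyrosyl-tRNA synthetase, fell on both steps, at 259.6, 263 and 275 CPM on day 5, 161, 177 and 184 CPM on day 6 and 132, 133 and 125 CPM on day 7 in sgControl (log2 fold change -1.03 ± 0.08, adjusted p = 1.4e-10; log2 fold change -1.11 ± 0.08, adjusted p = 3.3e-11 in sgRELA). CARS1, cysteinyl-tRNA synthetase, fell from means of 78.3 to 29.1 CPM in sgControl and from 75.6 to 28.4 CPM in sgRELA, and TARS1, threonyl-tRNA synthetase, from 147 to 102 CPM and from 141 to 105 CPM. VARS1, valyl-tRNA synthetase, rose from 62.8, 72.2 and 79.03 CPM on day 5 to 142, 120.3 and 119 CPM on day 7 in sgControl (log2 fold change 0.83 ± 0.15, adjusted p = 0.0003; log2 fold change 0.63 ± 0.15, adjusted p = 0.0056 in sgRELA). FARSA and FARSB, the subunits of phenylalanyl-tRNA synthetase, rose together, FARSB from 61.3 to 82.6 CPM and FARSA from 147 to 184 CPM by the sgControl means. Of 17 mitochondrial tRNA synthetases, 4 rose and 0 fell in both guides, with LARS2 at 76.6 CPM on day 5 and 121 CPM on day 7 in sgControl.

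**Figure D4:**
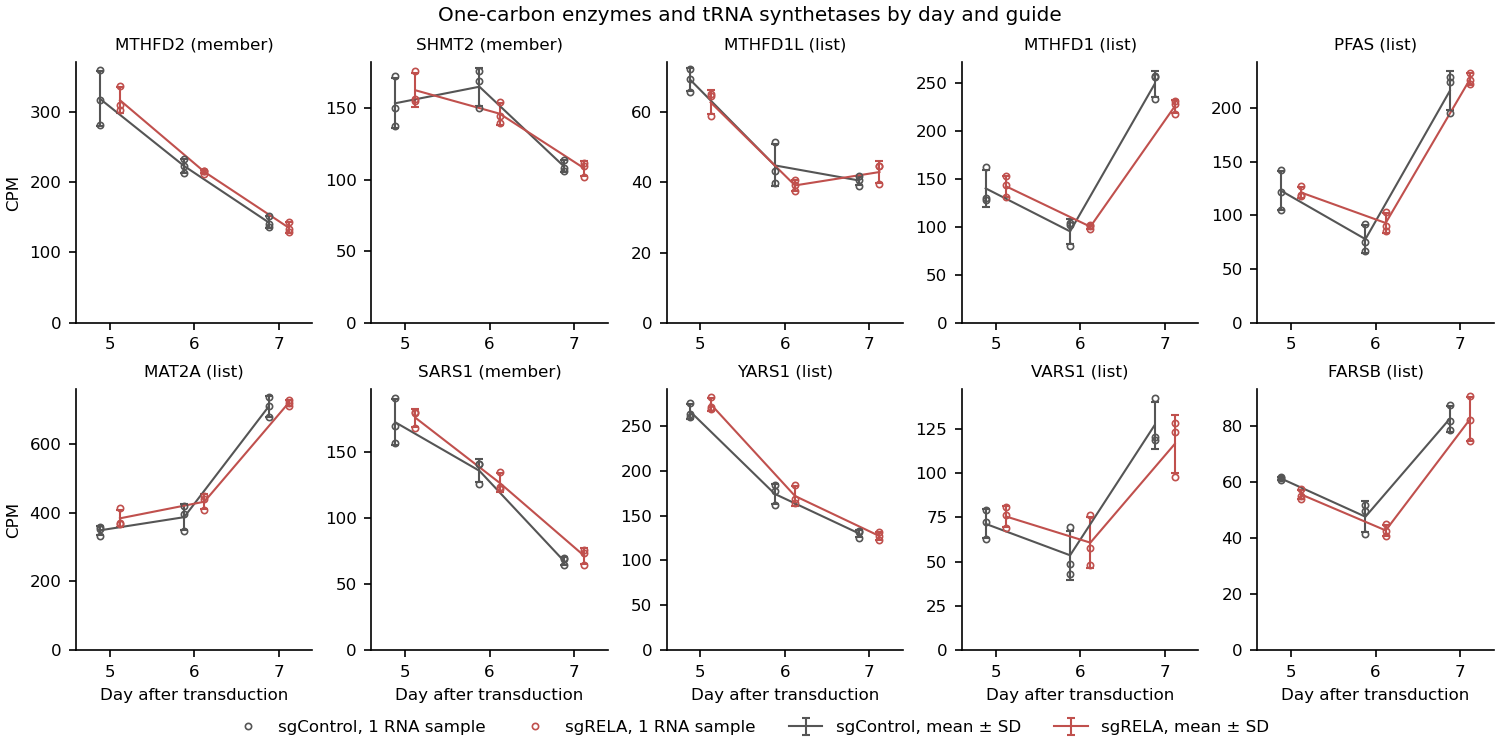
Level in CPM (vertical axis, from 0) on days 5, 6 and 7 of one-carbon enzymes and tRNA synthetases from among the 45 ATF4-response genes (marked member) and from the comparison lists (marked list), for sgControl (grey) and sgRELA (red); circles are RNA samples and bars the SD of 3 replicates. MTHFD2, MTHFD1L, SARS1 and YARS1 decline, whereas MTHFD1, PFAS, VARS1 and FARSB have their lowest mean on day 6 and their highest on day 7.

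Of 16 other amino acid transporters tested, 4 rose and 1 fell from day 5 to day 7 in both guides (4.39% and 3.72% of all genes). SLC6A6, the taurine transporter, rose from 84.2, 80.2 and 93.01 CPM to 152, 170.3 and 151 CPM in sgControl (log2 fold change 0.88 ± 0.11, adjusted p = 5.5e-07; log2 fold change 0.67 ± 0.11, adjusted p = 3.6e-05 in sgRELA). SLC7A6, a cationic amino acid exchanger that pairs with SLC3A2, rose from means of 24.3 to 38.1 CPM in sgControl and from 24.4 to 36.5 CPM in sgRELA between day 5 and day 7, and was not called on the first step. SLC43A1, a carrier of large neutral amino acids, was the 1 that fell, from 41.9, 58.2 and 41.5 CPM to 20.8, 22.98 and 23.2 CPM in sgControl (log2 fold change -1.08 ± 0.15, adjusted p = 6.7e-06; log2 fold change -0.995 ± 0.15, adjusted p = 2.2e-05 in sgRELA).

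Of 14 other enzymes of proline, aspartate, glutamate, alanine and branched-chain metabolism, 2 rose and 2 fell in both guides from day 5 to day 7. ASS1, which joins citrulline and aspartate on the route to arginine, peaked on day 6 like ATF5 and TRIB3. Its sgControl levels were 78.1, 61.6 and 63.3 CPM on day 5, 199, 172 and 169 CPM on day 6 and 15.9, 15.96 and 15.5 CPM on day 7. In sgRELA they were 89.3, 67.5 and 75.96 CPM on day 5, 168, 150.1 and 169 CPM on day 6 and 13.2, 15.2 and 18.5 CPM on day 7. The days did not overlap, and the fall from day 6 to day 7 was 11.4-fold in sgControl and 10.4-fold in sgRELA (adjusted p = 2.7e-17 and 6.9e-17). BCAT1, a transaminase of branched-chain amino acids, fell, and PYCR3, a cytosolic enzyme of proline synthesis, rose from 4.35 to 10.3 CPM by the sgControl means while PYCR1 fell. GLUL, glutamine synthetase, rose 1.17-fold in sgControl and 1.20-fold in sgRELA.

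Most ER stress genes rose to day 6 and then fell. Of 15 chaperones and sensors of the ER tested, 10 rose in both guides between day 5 and day 6 (1.31% of all genes), 14 fell between day 6 and day 7 (2.95%), and 7 were lower on day 7 than on day 5 (3.72%). HSPA5, the main ER chaperone, was at 459.9, 241 and 351 CPM on day 5, 529, 611 and 543 CPM on day 6 and 146, 156 and 139 CPM on day 7 in sgControl. It was at 477, 348 and 373 CPM on day 5, 600.1, 583 and 484 CPM on day 6 and 117, 136 and 119.7 CPM on day 7 in sgRELA. Its day 7 samples lay below all others, and the fall from day 6 was -1.93 ± 0.14 on the log2 scale in sgControl (adjusted p = 2e-11) and -2.16 ± 0.14 in sgRELA (adjusted p = 3.2e-12). ATF5, TRIB3, WARS1 and ASS1 also peaked on day 6, whereas SLC7A11, PHGDH, MTHFD2 and STC2 were already lower on that day. The part of ER stress in either course was not tested. Of 13 glutathione and NRF2 target genes, TXNRD1, thioredoxin reductase, and GSR, glutathione reductase, rose in both guides from day 5 to day 7 and none fell, against the falls of SLC7A11 and CHAC1. TXNRD1 rose from 193, 223 and 218 CPM to 324, 318 and 309 CPM in sgControl (log2 fold change 0.58 ± 0.08, adjusted p = 6.1e-06; log2 fold change 0.55 ± 0.08, adjusted p = 1.5e-05 in sgRELA). Of 18 genes of mTORC1 and its amino acid sensors, 3 fell and 2 rose in both guides (3.72% and 4.39% of all genes), and MTOR itself rose 1.23-fold in sgControl and 1.20-fold in sgRELA.

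**Figure D5:**
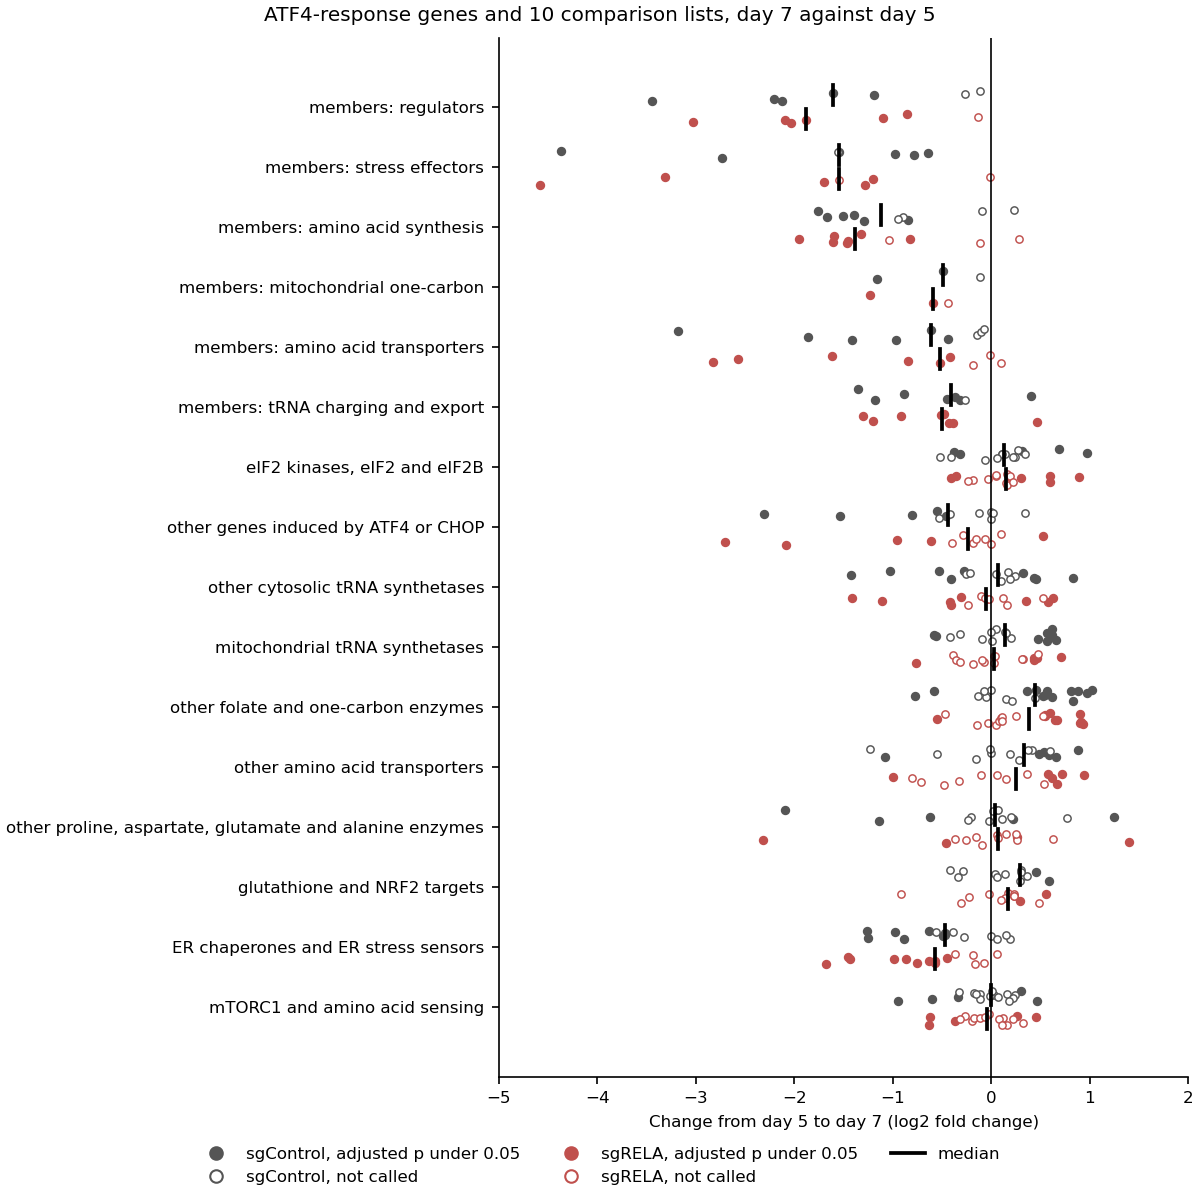
Log2 fold change from day 5 to day 7 of each gene tested in the 6 role groups of the ATF4 response and in the 10 comparison lists (rows), for sgControl (grey) and sgRELA (red); filled points passed an adjusted p of 0.05 and black bars are medians. The medians of the 6 role groups lie between -1.88 and -0.41, while those of the comparison lists range from -0.58 for the ER genes to 0.45 for the other folate enzymes; SLC1A3 in sgRELA, with 1 count over the day 5 samples, lies outside the axis.

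The promoter letters were set beside the time courses as a description. Of the 14 genes with TGATGNAA in a window, 11 were lower on day 7 than on day 5 in both guides, and the others were CEBPG, SLC1A4 and SLC38A1. Of the 23 genes whose windows lack the letters, 15 were lower in both guides, among them ATF4, DDIT3, STC2 and PHGDH. In the 10 comparison lists the letters were found in 3 of 12 genes with a window for the cytosolic tRNA synthetases (25%), 2 of 9 for the proline and aspartate enzymes (22.2%), 1 of 11 for the other genes induced by ATF4 or CHOP (9.09%), 0 of 9 for the glutathione list, and 6.25% to 7.14% of the genes in the other 6. Windows per gene were 1.62 for the ATF4-response genes and 1.29 for all genes.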

How the data were processed

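RNA from 300000 cells per replicate was made into RamDA-seq libraries, with 100 pg of RNA per library, per the labels' protocols. The authors deposited raw counts per gene for each library, with no normalization; per the submitters' processing notes the tools were cutadapt 1.18 and STAR 2.7.9a with GRCh38. The counting tool, its annotation, strand setting and treatment of multi-mapping reads are not given in the sources used here. The 2 libraries of each RNA sample were added and 18 RNA samples fitted in edgeR 4.0.16 (R 4.3.3) with 1 mean per group, TMM normalization, a filter at a minimum count of 10 and the quasi-likelihood test with 12 residual degrees of freedom; p-values were Benjamini-Hochberg adjusted over 27553 genes and called under 0.05. DESeq2 1.42.0 was an alternative. The procedure was tested on simulated data.

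The 45 genes and all comparison lists were chosen with earlier results of these data known. Values per sample are given for ATF4, DDIT3, ASNS and SLC7A11, for up to 4 genes per role group called in both guides with the smallest p from day 5 to day 7, and for genes called in 1 guide alone or in opposite directions on the steps; of each comparison list, up to 3 genes per direction called in both guides. Other genes are named by counts or single values.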

Additional observations from a re-analysis of the deposited data

Results flagged for a closer look

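Each level of the ATF4-response genes named by sample was also looked at library by library, in groups of 6 libraries made from 3 RNA samples. In 17 of 156 such groups 1 library lay outside the range of the others by Dixon's test, where chance alone gives about 1 in 20, and pairs of libraries that share an RNA sample are not independent. Library 1 of sgControl day 6 replicate 1, which has few detected genes, was the outlying library for 7 genes. It was low for ASNS at 30.9 CPM (52.0 to 63.1 CPM in the other libraries of the group), PSAT1 at 91.7 CPM (218 to 280.1), GARS1 at 80.0 CPM (161 to 203) and XPOT at 131 CPM (392 to 419). It was high for TRIB3 at 311 CPM (157 to 195), GPT2 at 48.3 CPM (24.5 to 33.3) and SLC7A5 at 294 CPM (159 to 173).

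Library 1 of sgControl day 5 replicate 2, the library with the fewest detected genes, was low for GARS1 at 179 CPM (254 to 284) and XPOT at 216 CPM (307 to 356). On day 7, library 2 of sgControl replicate 3 was high for ASNS at 30.0 CPM (15.02 to 19.8) and PPP1R15A at 22.9 CPM (12.9 to 16.2). SLC7A11 was high in library 1 of sgControl day 5 replicate 1, at 123 CPM (78.6 to 95.01). WARS1 was low in library 2 of sgControl day 5 replicate 3, at 37.9 CPM (61.2 to 71.6), and its call between day 5 and day 7 in sgControl was lost without that RNA sample (adjusted p = 0.163). In sgRELA, PPP1R15A was low in library 1 of day 5 replicate 1 at 38.1 CPM (52.6 to 61.1) and in library 2 of day 6 replicate 2 at 29.2 CPM (42.1 to 45.9). TRIB3 was low in library 1 of sgRELA day 6 replicate 3 at 142 CPM (166 to 177), and MARS1 high in library 2 of sgRELA day 7 replicate 3 at 323 CPM (271 to 289).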

How the results depend on the processing

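For the genes named by sample, 1626 of 1708 values under an alternative kept their direction and their side of the threshold, 82 lost the call and 0 reversed. With DESeq2, and with its size factors in edgeR, all 122 calls stayed. Only values called in the main fit enter this count, most of them of genes picked for a small p, so that few reversals could arise. Gained calls cannot show in it: with DESeq2, 22 of the ATF4-response genes were called from day 5 to day 6 in sgControl (16 with edgeR). Using 1 library of each RNA sample in place of the sum lowered the counts of genes called. From day 5 to day 6 the first libraries alone gave 6 in sgControl and 4 in sgRELA (16 and 16 with the sum). From day 6 to day 7 they gave 25 and 19 (29 and 30 with the sum). From day 5 to day 7 they gave 23 and 23 (32 and 34 with the sum). The second libraries alone gave 13 and 10, 26 and 26, and 30 and 30 in the same order. Of the 122 calls of genes named by sample, 33 were lost with the first libraries alone and 11 with the second. Between guides, 1 gene was called on day 5 with no filter on low counts (ATF5, adjusted p = 0.0172) and 1 on day 7 with DESeq2 (STC2); leaving out each RNA sample in turn gave 0 to 1 genes on days 5 and 7. Leaving out each RNA sample gave 12 to 16 genes called in sgControl and 13 to 14 in sgRELA from day 5 to day 6, 28 to 31 and 27 to 29 from day 6 to day 7, and 27 to 31 and 32 to 34 from day 5 to day 7. Replicate numbers are shared between groups. By deviations from the group means, 0 of 18 same-numbered pairs of RNA samples across days correlated over 0.1 (r from -0.11 to 0.045 over 15514 genes). Of 36 differently numbered pairs 1 did (r = 0.14). These deviations also carry library noise, so that the check cannot show whether same-numbered samples share a transduction or culture. With a replicate block 16 and 14 genes were called from day 5 to day 6 in sgControl and sgRELA, 29 and 29 from day 6 to day 7, and 33 and 35 from day 5 to day 7. DDIT3, CHAC1 and SLC6A9, with 5, 2 and 1 counts in their lowest day 7 samples, are limited by depth.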
